A study of Mus musculus with 9 samples.

Results

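The change described here is the one between 24 h and 72 h after a single peroxide exposure of mouse cortical astrocytes. The 3 libraries harvested 72 h after washing (day 3) were set against the 3 libraries harvested 24 h after washing (day 1), so 6 of the 9 libraries of the study carry the comparison and the 3 untreated control libraries give the starting level. Of the 25239 genes in the deposited table, the 12611 with a mean of at least 1 FPKM (fragments scaled by gene length and by library total) over the 9 libraries were described. The members nearest that limit were Osbp2 and Gm9949, just inside with means of 1.0001 and 1.00028 FPKM, and Efcab11 and Prr36, just outside with 0.999589 and 0.999601 FPKM.

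All cells were primary astrocytes taken from the cortex of mouse pups at postnatal day 4 and grown in a medium with horse and fetal bovine serum. Strain, sex and genotype are not given in the labels. Day 1 and day 3 cells received 200 µM H2O2 for 3 h and were then washed back into growth medium. Control cells carry no harvest time in the labels, so day 3 and the time spent in culture cannot be told apart. The labels do not say whether the 3 libraries of a group came from separate cultures, so the spread behind each p-value may be only technical. Poly(A) RNA was sequenced. The read totals behind the FPKM are not in the labels and were inferred from the deposited values. They were 23032594 to 27850348 per library on day 1, 30545004 to 36749577 on day 3 and 30278210 to 38414668 in control. By these totals every day 3 library was deeper than every day 1 library. With the reads thinned to 23032594 in each library, 3307 genes were called higher and 3402 lower on day 3, against 3515 and 3577 without thinning. Reads of Rn45s, the ribosomal RNA precursor, made up 7.67% to 9.36% of a day 1 library and 9.15% to 11.1% of a day 3 library. Serum-grown cortical cultures hold other glia beside astrocytes. Summed over its 25 genes, the mature astrocyte list read 5271 to 5821 FPKM on day 1, 7810.0 to 8120.0 on day 3 and 7870.0 to 8304 in control, and each of its genes was detected.

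Hydrogen peroxide is a diffusible oxidant that damages DNA, proteins and lipids. Astrocytes meet it with catalase, peroxiredoxins and glutathione peroxidases, with the transcription factor NRF2, which drives antioxidant genes, and with p53, which holds damaged cells out of division. Injured astrocytes are also known to deposit matrix, and transforming growth factor beta and activin, ligands of one receptor family, are known drivers of collagen, contractile and matrix-crosslinking genes.

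Of the 12611 genes, 7092 differed between day 3 and day 1 (56.2%, limma with Benjamini-Hochberg adjusted p under 0.05, the rule for every gene called below), 3515 of them higher (27.9%) and 3577 lower (28.4%) on day 3. Most of the differences were small. Among the called genes, 1597 rose and 1910 fell by less than 1.2-fold, 184 rose by at least 2-fold (1.46%) and 106 fell by at least 2-fold (0.841%). Of the tested genes, 71 reached the mean of 1 FPKM only through day 1 as the highest group (48 of them called lower on day 3) and 43 only through day 3 (22 called higher), so the filter favoured a difference in these genes. The 3 day 3 libraries lay wholly above or wholly below the 3 day 1 libraries for 7922 genes (62.8%), and the median log2 difference over all 12611 genes was 0.00079. Against the same control libraries, 7839 genes differed on day 1 (62.2%, with 31.1% higher and 31.1% lower) and 1742 on day 3 (13.8%, with 7.37% higher and 6.45% lower). Principal component 1 (64.1% of the variance) placed the day 1 libraries at 26.3 to 32.2, the day 3 libraries at -13.4 to -8.85 and the control libraries at -18.4 to -17.9. On the second component (9.54%) the day 3 libraries sat at -12.3 to -8.71, below the control (7.07 to 11.1) and day 1 (-1.33 to 5.54) libraries. Differences against control and between the days share libraries, so the level a gene had by chance in the day 1 libraries enters both with opposite signs.

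Among called genes with at least 5 FPKM in the higher of the 2 groups, the largest rise was that of Apod (chr16:31296192-31314808, GRCm38), which encodes the lipid-carrying apolipoprotein D. It read 3.14, 2.84 and 2.68 FPKM on day 1 and 33.6, 31.8 and 27.1 FPKM on day 3, beside 34.6 ± 0.396 FPKM (SD, n = 3) in control. Day 3 was 10.2-fold higher (95% interval 9.13 to 11.5, adjusted p = 2.55e-09) than day 1. Against control its log2 difference was -0.16 ± 0.075 (SE) and passed no threshold (adjusted p = 0.206), although the day 3 libraries lay just below the control libraries. Dcn (chr10:97479500-97518163), the small proteoglycan decorin that binds collagen fibrils, went from 10.04, 9.69 and 7.28 FPKM to 53.3, 54.9 and 49.3 FPKM and was 5.76-fold higher (95% interval 4.96 to 6.68, adjusted p = 2.53e-08). In control Dcn read 45.07 ± 1.85 FPKM, and day 3 was not called against it (adjusted p = 0.144). C3 (chr17:57203967-57228136), the central complement component, read 12.9, 14.8 and 11.5 FPKM on day 1 and 71.2, 79.3 and 70.6 FPKM on day 3, a level 5.58-fold higher (95% interval 4.86 to 6.4, adjusted p = 2.19e-08), with 87.8 ± 7.66 FPKM in control. Lcn2, the siderophore-binding lipocalin 2 known as a marker of reactive astrocytes, had 4.21, 3.87 and 3.77 FPKM on day 1 and 20.4, 19.6 and 20.9 FPKM on day 3. Its control level was 16.8 ± 1.3 FPKM (log2 difference on day 3 0.29 ± 0.062 (SE), adjusted p = 0.0116). The rule for large changes took only genes whose day 1 and day 3 libraries did not overlap, so the lack of overlap in these 4 genes is no finding.

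Stab1, a scavenger receptor known from macrophages, followed with 4.6, 4.95 and 4.5 FPKM on day 1 and 25.1, 23.4 and 20.5 FPKM on day 3, a 4.77-fold rise. Its control mean was 21.55 FPKM, and day 3 was not called against control (adjusted p = 0.383). Moxd1, a monooxygenase-like protein, rose 4.22-fold to 8.34 FPKM and stood above the 6.09 FPKM of control (log2 difference 0.47 ± 0.058 (SE), adjusted p = 6.95e-04). Galnt15, a glycosyltransferase that starts mucin-type sugar chains, rose 3.71-fold, and Lepr, the leptin receptor, 3.61-fold. The antisense transcript Dio3os rose 3.4-fold, from 2.45, 1.66 and 1.26 FPKM to 6.4, 6.4 and 5.74 FPKM. Strand handling in the counting is unknown from the labels, so reads of Dio3os and of the gene on the other strand cannot be told apart. Ifitm1, an interferon-induced membrane protein, rose 3.38-fold, and Bmp7, a bone morphogenetic protein ligand, rose 3.36-fold from 1.39, 1.67 and 1.28 FPKM to 5.24, 5.38 and 4.78 FPKM. Bmp7 stayed below its control level of 7.01 ± 0.415 FPKM (log2 difference -0.43 ± 0.091 (SE), adjusted p = 0.0119). The small nucleolar RNA gene Snord37 also met the rule for large rises, with 1.59, 1.35 and 0 FPKM on day 1 and 5.56, 7.21 and 3.59 FPKM on day 3. Its wide interval, 2.32 to 31.2-fold, and its small size in a poly(A) library leave its value uncertain.

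**Figure D1:**
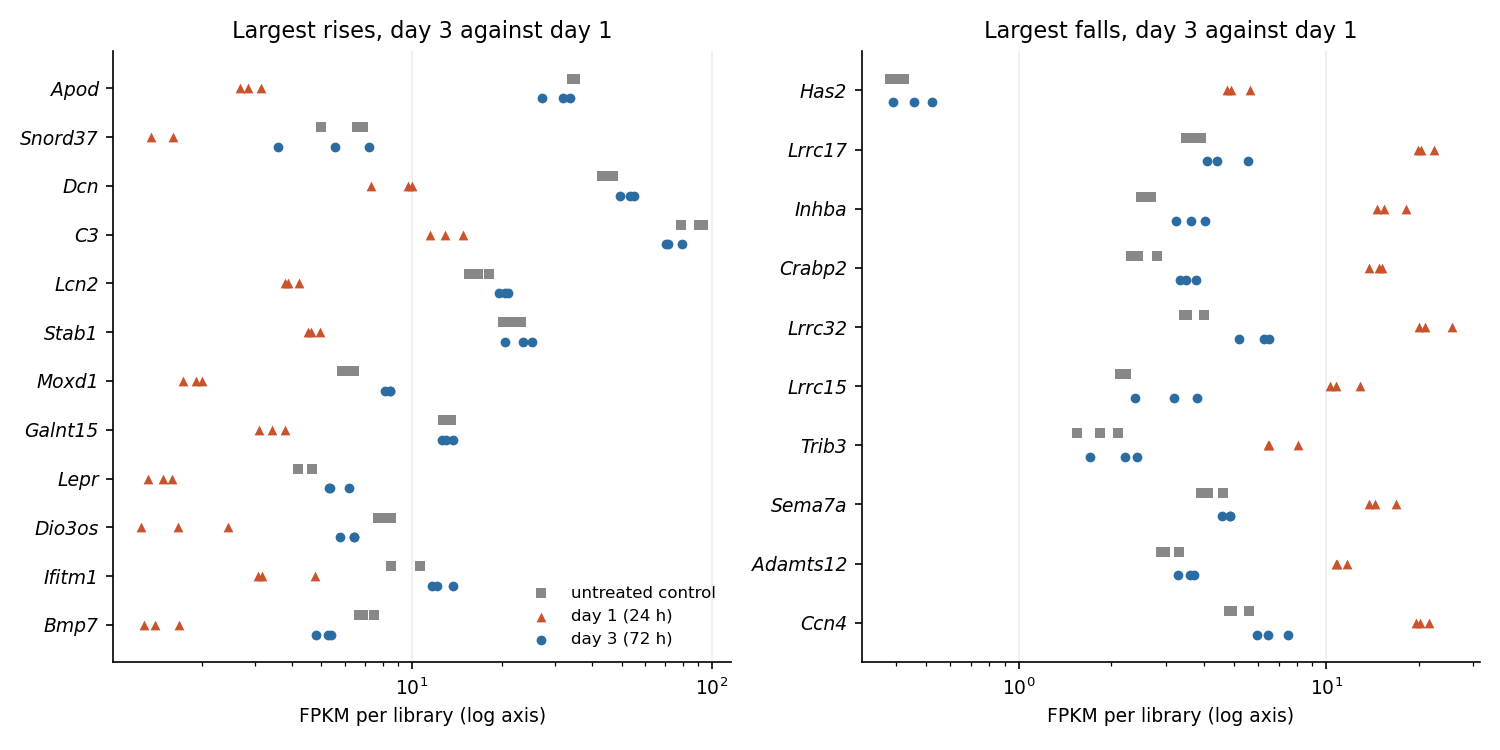
FPKM of each library (log axis) for the 12 genes with the largest rises (left) and 10 of the 12 with the largest falls (right) from day 1 to day 3. Squares are untreated control, triangles day 1 and circles day 3 libraries. The triangles stand apart from the circles in every gene shown, as the rule that picked these genes required. For Snord37, 1 day 1 library at 0 FPKM cannot be drawn on this axis.

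Has2 (chr15:56665627-56694546), the membrane enzyme that makes long hyaluronan chains, had the largest fall by the same rule. It read 4.74, 4.88 and 5.64 FPKM on day 1 and 0.525, 0.457 and 0.391 FPKM on day 3, 9.42-fold lower. Has2 reached the mean of 1 FPKM only through day 1, the group where it is high, so its difference is given as a description, with no test. The control libraries held 0.4003 ± 0.0212 FPKM and overlapped the day 3 libraries (adjusted p = 0.479). Inhba (chr13:16004256-16031609), the subunit that pairs to form activin A, dropped from 14.6, 15.4 and 18.2 FPKM to 3.64, 3.25 and 4.02 FPKM, 4.38-fold lower (95% interval 3.8 to 5.04, adjusted p = 5.72e-08). On day 3 it was still above its control mean of 2.57 FPKM (adjusted p = 0.00586).

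The other large falls named by the same rule ran from 4.46-fold for Lrrc17, a secreted leucine-rich repeat protein, to 3.08-fold for Ccn4, a matricellular protein of the Wnt pathway. Crabp2, which carries retinoic acid, fell 4.08-fold, and Lrrc32, which holds latent transforming growth factor beta at the cell surface, fell 3.69-fold from 20.9, 20.02 and 25.5 FPKM to 6.5, 5.18 and 6.29 FPKM. Lrrc15, a membrane protein known from activated fibroblasts, fell 3.6-fold, and Trib3, a pseudokinase induced by the stress factor ATF4, 3.25-fold. Sema7a, a membrane-bound semaphorin, fell 3.13-fold, and Adamts12, a secreted protease, 3.1-fold. In each of these 8 genes the highest day 3 library was below the lowest day 1 library, as the rule required.

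Gene lists were then described by role, as the number of members called in each direction. The plot of lists shows these shares beside those over all 12611 genes, 27.9% higher and 28.4% lower. A count near these shares is no trait of its list.

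**Figure D2:**
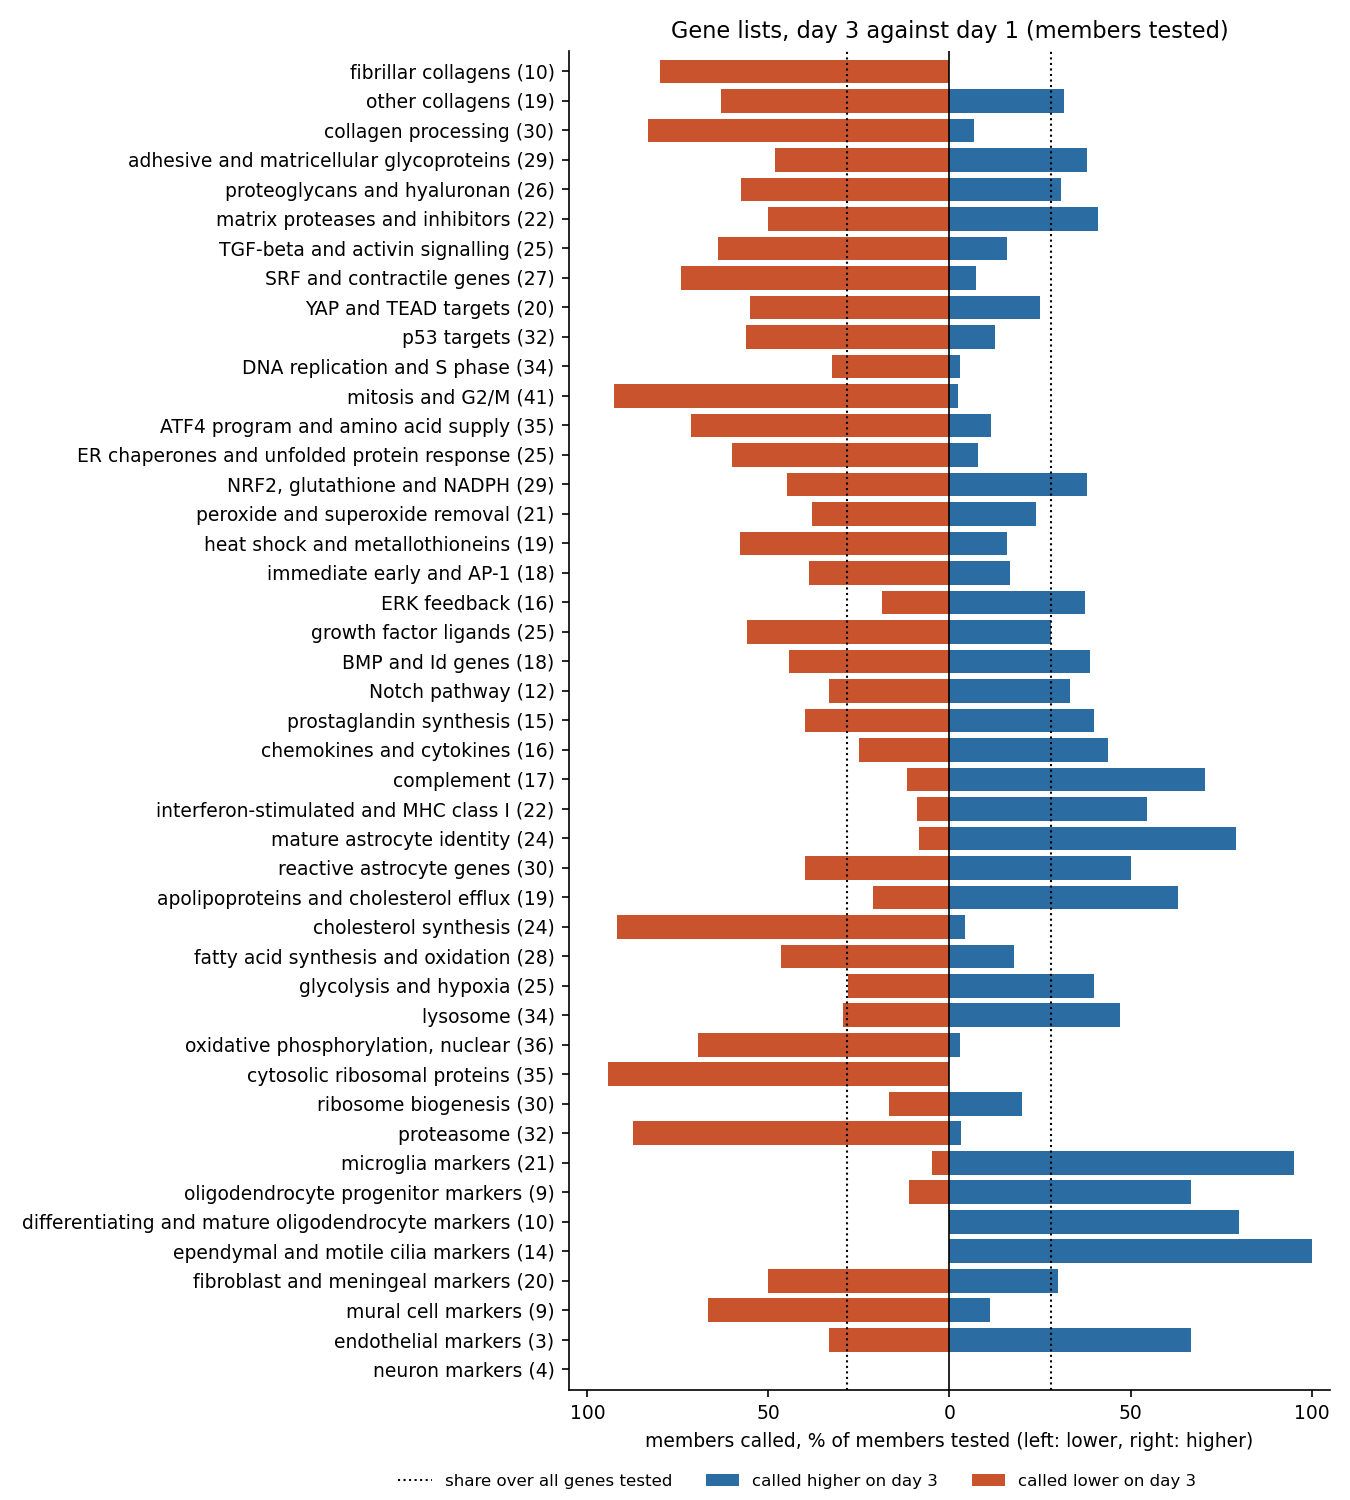
Share of tested members of each of the 45 gene lists called lower (left, orange) or higher (right, blue) on day 3 than on day 1, in percent, with the number tested in brackets. Dotted lines mark the shares over all 12611 genes, 28.4% lower and 27.9% higher. The ribosomal protein, mitosis, cholesterol synthesis, proteasome and collagen processing bars reach far left, and the ependymal, microglia and astrocyte bars far right.

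The fibrillar collagens, whose chains assemble into tissue fibres, fell. Of the 10 tested members (of 11 listed), 0 rose and 8 fell from day 1 to day 3, with a median log2 difference of -0.74. Against control, 6 were higher and 1 lower on day 1 (median 0.92), and 6 were higher and 3 lower on day 3 (median 0.21). Col1a1 (chr11:94936224-94953042), the main chain of type I collagen, read 995, 999 and 1084 FPKM on day 1 and 496, 439 and 568 FPKM on day 3, 2.08-fold lower (95% interval 1.85 to 2.34, adjusted p = 1.26e-06), and Col1a2, its partner chain, read 703, 713 and 754 FPKM on day 1 and 404, 353 and 439 FPKM on day 3, 1.84-fold lower (95% interval 1.67 to 2.02, adjusted p = 1.20e-06). Both remained above control, with 392 ± 20.4 FPKM for Col1a1 (log2 difference on day 3 0.36 ± 0.075 (SE), adjusted p = 0.0104) and 308 ± 12.2 FPKM for Col1a2 (0.38 ± 0.062 (SE), adjusted p = 0.00273). Col3a1, the chain of type III collagen, fell less, from 283, 282 and 281 FPKM to 239, 205 and 243 FPKM (log2 difference -0.32 ± 0.049 (SE), adjusted p = 2.50e-04). Col5a1, which sets fibril diameter with type I collagen, fell 2.13-fold, to 61.7 FPKM against 49.3 FPKM in control. Col11a1, a minor fibril chain, was 1 of the 3 members lower than control on day 3. It read 51.1 ± 1.35 FPKM in control, 49.9 ± 1.5 FPKM on day 1 and 33.4 ± 1.44 FPKM on day 3 (SD, n = 3). All 3 of its day 3 libraries lay below all others. Col2a1 and Col27a1 passed no threshold (log2 differences -0.19 and 0.089).

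Among the other collagens, which build basement membranes and beaded filaments, 6 rose and 12 fell from day 1 to day 3, with a median log2 difference of -0.26 (19 of 23 tested). The beaded-filament chain Col6a3 fell 2.79-fold from 38.2, 38.6 and 39.8 FPKM to 14, 12.8 and 15.3 FPKM, and Col7a1, the anchoring fibril chain, 2.62-fold from 51.8, 54.9 and 56.2 FPKM to 21.3, 19.1 and 22.4 FPKM. Col8a2 and Col9a2 moved the other way, 2.16-fold and 2.08-fold up to 3.96 and 3.69 FPKM. Of the 30 tested genes that hydroxylate, fold, trim and crosslink collagen, 2 rose and 25 fell from day 1 to day 3, with a median log2 difference of -0.31. Lox, the crosslinking lysyl oxidase, read 205, 204 and 227 FPKM on day 1 and 110.4, 92 and 122 FPKM on day 3 and was 1.99-fold lower (95% interval 1.76 to 2.25, adjusted p = 3.28e-06), with 76.4 FPKM in control. The propeptide protease Adamts14 fell 1.97-fold and the collagen chaperone Serpinh1 from a mean of 411 to 252 FPKM (log2 difference -0.72, adjusted p = 3.62e-07). The 2 that rose were the prolyl hydroxylases P4ha3 (log2 difference 0.31) and P3h2 (0.20).

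Other matrix genes moved in both directions. Of 29 adhesive and matricellular glycoproteins 11 rose and 14 fell from day 1 to day 3, with a median log2 difference of -0.12. Tnc, the injury-associated glycoprotein tenascin-C, dropped from 155, 155 and 161 FPKM to 53.9, 50.9 and 56.5 FPKM, 2.94-fold lower (95% interval 2.79 to 3.11, adjusted p = 2.55e-09). Vtn, the serum adhesion protein vitronectin, rose 3.002-fold and Thbs4, a thrombospondin, 2.76-fold, both to under 2 FPKM on day 3. Of 26 proteoglycan and hyaluronan genes (of 29 listed) 8 rose and 15 fell from day 1 to day 3, with a median log2 difference of -0.12. Beside Has2, the hyaluronan-binding protein Hmmr fell 2.11-fold, to 2.61 FPKM against 3.62 FPKM in control, and beside Dcn, the related small proteoglycan Lum rose 2.31-fold. Of 22 proteases and inhibitors (of 26 listed) 9 rose and 11 fell from day 1 to day 3, with a median log2 difference of -0.081. The protease inhibitor Timp1 read 111, 110.2 and 126 FPKM on day 1 and 42.6, 41.8 and 46.8 FPKM on day 3 and was 2.67-fold lower (95% interval 2.43 to 2.93, adjusted p = 5.72e-08). Its relative Timp4 rose 1.68-fold and the membrane protease Mmp15 1.72-fold.

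Ligands and regulators of the transforming growth factor beta and activin pathway fell: of 25 tested genes 4 rose and 16 fell from day 1 to day 3, with a median log2 difference of -0.45. Besides Inhba and Lrrc32, the ligands Tgfb2 and Tgfb3 fell from 12.7 to 7.93 FPKM and from 35.2 to 19.9 FPKM (log2 differences -0.69 and -0.83). The co-receptor Tgfbr3 was 3.06-fold higher (95% interval 2.72 to 3.45, adjusted p = 1.14e-07) and Ltbp4, a latency protein, rose with a log2 difference of 0.41. The signalling receptors Tgfbr1 and Tgfbr2 and the transducer Smad2 passed no threshold (log2 differences -0.083, -0.041 and -0.011).

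Contractile genes under serum response factor followed. Of 27 tested, 2 rose and 20 fell from day 1 to day 3, with a median log2 difference of -0.42. Acta2, smooth muscle actin, read 981, 977 and 1030.0 FPKM on day 1 and 405, 375 and 435 FPKM on day 3, 2.49-fold lower (95% interval 2.32 to 2.67, adjusted p = 2.03e-08). The day 3 libraries of Acta2 also lay below the control libraries (463, 481 and 493 FPKM, log2 difference -0.23 ± 0.046 (SE), adjusted p = 0.00942). Actg2, the enteric smooth muscle actin, fell 2.9-fold to 42.5 FPKM against 36 FPKM in control. The 2 risen members were the factor Srf itself and its coactivator Mrtfb (log2 differences 0.13 and 0.13). Both calls were lost on leaving out day 1 replicate 1 (adjusted p = 0.0593 for Srf and 0.0861 for Mrtfb), day 1 replicate 2 (0.0921 for Srf and 0.0842 for Mrtfb) or day 3 replicate 2 (0.0682 for Srf and 0.0886 for Mrtfb), and the call of Mrtfb also without each of the remaining day 1 and day 3 libraries and without control replicate 2 (0.0507). Of 20 tested targets of YAP, a factor that reads cell tension, 5 rose and 11 fell from day 1 to day 3, with a median log2 difference of -0.16. Foxf2 and Dock5 fell most (2.39-fold and 1.61-fold), Nuak2 and Wwc1 rose most (log2 differences 0.49 and 0.41), and the standard target Ccn2 stood at 598 and 570.2 FPKM with no call (adjusted p = 0.103).

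Mitotic genes went down below the untreated level. Of 41 tested genes of mitosis and the G2 phase (of 42 listed), 1 rose and 38 fell from day 1 to day 3, with a median log2 difference of -0.73; against control, 20 were higher and 3 lower on day 1 (median 0.24), and 0 were higher and 35 lower on day 3 (median -0.46). Prc1, which bundles the spindle midzone, read 10.2, 11.3 and 10.8 FPKM in control, 14.3, 14 and 14.2 FPKM on day 1 and 6.97, 7.49 and 7.12 FPKM on day 3. Day 3 was 1.98-fold lower (95% interval 1.84 to 2.12, adjusted p = 8.95e-08) than day 1, and its 3 libraries lay below all control and day 1 libraries. Cenpf, a kinetochore protein, fell 1.94-fold from 2.93, 3.39 and 3.26 FPKM to 1.55, 1.73 and 1.56 FPKM, against 2.46, 3.01 and 2.73 FPKM in control. Mki67, the proliferation marker, read 9.32 ± 0.761 FPKM in control, 7.92 ± 0.344 FPKM on day 1 and 6.47 ± 0.16 FPKM on day 3 (log2 difference from day 1 -0.30 ± 0.057 (SE), adjusted p = 0.00109). The single riser was Pttg1, the anaphase inhibitor securin (log2 difference 0.20, adjusted p = 0.0463). Its call was lost without day 1 replicate 1, day 1 replicate 2, day 3 replicate 1, day 3 replicate 2 or control replicate 2 (adjusted p = 0.0583 to 0.177). In bulk RNA, fewer dividing cells and less of each transcript per dividing cell cannot be told apart.

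Of 34 tested genes of DNA replication, 1 rose and 11 fell from day 1 to day 3, with a median log2 difference of -0.13. In either direction 35.3% of the list was called, against 56.2% of all 12611 genes, and 28.4% of all genes were lower. The share of fallen replication genes was thus near that over all genes. Without day 3 replicate 3, 7 of the replication genes were called lower, and without day 1 replicate 3, 2 were called higher. Against control, 5 were higher and 12 lower on day 1, and 0 higher and 15 lower on day 3. Among the fallen members, Rrm2, a ribonucleotide reductase subunit, read 15.7, 16.8 and 16.2 FPKM on day 1 and 10.5, 10.5 and 10.8 FPKM on day 3, and Tyms, thymidylate synthase, fell 1.54-fold. The helicase subunits Mcm2 and Mcm5 and the sliding clamp Pcna passed no threshold (log2 differences -0.13, -0.096 and -0.06). The DNA polymerase subunit Pold1 rose (log2 difference 0.30).

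Promoters of the fallen mitotic genes are shown because the members moved together. Cell cycle promoters are known to carry a CHR element, TTTGAA or TTCGAA, bound by the DREAM complex that p53 acts through, often beside CCAAT boxes. Among RefSeq windows from 250 bases before to 50 after the start (GRCm38.p6), matched for 34 of the 41 tested members, 27 of 36 windows held TTTGAA or TTCGAA on either strand (75.0%, against 19.2% of 32851 windows of all genes). CCAAT on either strand was in 27 of the 36 (75.0%, against 37.4%). A match is a description and not a binding site. The windows counted are those of all tested members, fallen or not, of a list chosen as cell cycle genes. The shares therefore say nothing about the fall. Windows were printed only for fallen members that hold both a CHR and a CCAAT match. Below are those of 3 such members with large falls, 5′ to 3′ on the gene's own strand, with each CHR and CCAAT match in capitals: Prc1 (chr7:80294201-80294500, plus strand), Cenpf (chr1:189688037-189688336, minus strand) and Ect2 (chr3:27153829-27154128, minus strand), which encodes an activator of the cytokinetic ring. Ect2 fell from a mean of 4.9 to 2.53 FPKM (log2 difference -0.94, adjusted p = 1.37e-06).
Prc1: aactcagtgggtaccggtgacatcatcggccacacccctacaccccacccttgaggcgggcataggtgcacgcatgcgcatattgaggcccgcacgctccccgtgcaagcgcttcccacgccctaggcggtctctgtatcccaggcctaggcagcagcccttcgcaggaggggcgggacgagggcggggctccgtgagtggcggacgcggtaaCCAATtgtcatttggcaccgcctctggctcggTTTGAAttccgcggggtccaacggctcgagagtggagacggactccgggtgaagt
Cenpf: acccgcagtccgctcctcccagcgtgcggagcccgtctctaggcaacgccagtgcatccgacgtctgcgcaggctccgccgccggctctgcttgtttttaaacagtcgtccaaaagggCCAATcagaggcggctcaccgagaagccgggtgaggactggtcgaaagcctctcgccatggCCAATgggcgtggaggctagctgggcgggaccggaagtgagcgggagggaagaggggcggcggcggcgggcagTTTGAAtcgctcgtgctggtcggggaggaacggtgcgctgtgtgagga
Ect2: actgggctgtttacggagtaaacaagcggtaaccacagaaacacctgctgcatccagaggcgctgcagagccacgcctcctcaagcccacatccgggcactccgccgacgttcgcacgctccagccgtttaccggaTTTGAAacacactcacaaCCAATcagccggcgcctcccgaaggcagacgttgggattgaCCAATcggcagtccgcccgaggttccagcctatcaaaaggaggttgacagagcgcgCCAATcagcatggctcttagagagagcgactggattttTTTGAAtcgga
In Prc1 the CHR match starts at position -5 from the annotated start and a CCAAT at -37, and in Cenpf the CHR match starts at 2 with CCAAT matches at -71 and -132.

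Targets of p53 fell less far and stayed above control. Of 32 tested members 4 rose and 18 fell from day 1 to day 3, with a median log2 difference of -0.15; against control, 24 were higher and 3 lower on day 1 (median 0.51), and 24 were higher and 0 lower on day 3 (median 0.33). Cdkn1a, the cell cycle inhibitor p21, read 83, 85.6 and 88.4 FPKM in control, 162, 167 and 168 FPKM on day 1 and 136, 137 and 142 FPKM on day 3. The log2 difference between the days was -0.28 ± 0.029 (SE) (adjusted p = 1.60e-05), and on day 3 Cdkn1a was above control by 0.70 ± 0.029 (SE) (adjusted p = 9.34e-07). The 3 groups of Cdkn1a did not overlap. Mdm2, the ubiquitin ligase that limits p53, went from 47.7, 51.1 and 50.8 FPKM to 46, 42.3 and 46.9 FPKM (log2 difference -0.16 ± 0.043 (SE), adjusted p = 0.00769), with 33.8 FPKM in control. Pmaip1, the death-promoting protein Noxa, fell most, 2.44-fold, from 23.4, 25.8 and 26.9 FPKM to 10.5, 9.77 and 11.1 FPKM, and was followed by the cytokine Gdf15 (1.54-fold). The 4 that rose included the repair factor Xpc (log2 difference 0.17) and the noncoding Pvt1 (0.19), whose call was lost without day 1 replicate 2 or 3 or day 3 replicate 1 or 3 (adjusted p = 0.0506 to 0.148). Without day 1 replicate 3 or day 3 replicate 3, 2 of the p53 targets were called higher.

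Genes of the ATF4 program, which supplies amino acids and charged transfer RNAs under stress, fell: of 35 members 4 rose and 25 fell from day 1 to day 3, with a median log2 difference of -0.42. Trib3 read 6.49, 6.44 and 8.06 FPKM on day 1 and 2.22, 1.7 and 2.43 FPKM on day 3, against 1.83 ± 0.281 FPKM in control. Asns, asparagine synthetase, read 32.8, 33 and 36.8 FPKM on day 1 and 16.5, 14.3 and 16.1 FPKM on day 3, 2.21-fold lower (95% interval 1.99 to 2.44, adjusted p = 3.55e-07). Against control, the list had 27 members higher on day 1 and 10 on day 3. Slc7a11, the cystine importer that feeds glutathione synthesis, was 1.81-fold higher (95% interval 1.59 to 2.06, adjusted p = 1.18e-05) and exceeded its control level on day 3 (3.1, 2.77 and 2.73 FPKM in control, 4.09, 3.48 and 4.18 FPKM on day 3). Cbs, which makes cystathionine, rose with a log2 difference of 0.29. A composite element bound by ATF4, searched as TGATGNAA on either strand, was in 10 of 34 promoter windows of the list (29.4%, against 4.0% of all windows). The list was chosen as genes of this program and counted whether fallen or not, so the share says nothing about the fall. Only fallen members that hold a match were printed. The windows of Trib3 (chr2:152344011-152344310, minus strand) and Asns (chr6:7693160-7693459, minus strand) are shown as those with the largest falls, with the match in capitals. It lies on the opposite strand in Trib3, starting at 14, and on the gene's strand in Asns, starting at -23.
Trib3: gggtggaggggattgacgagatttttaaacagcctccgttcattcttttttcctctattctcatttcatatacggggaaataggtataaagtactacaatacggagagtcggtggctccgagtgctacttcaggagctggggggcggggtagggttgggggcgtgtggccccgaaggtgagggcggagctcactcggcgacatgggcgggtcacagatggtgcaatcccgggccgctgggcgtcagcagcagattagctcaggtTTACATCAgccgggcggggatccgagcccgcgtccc
Asns: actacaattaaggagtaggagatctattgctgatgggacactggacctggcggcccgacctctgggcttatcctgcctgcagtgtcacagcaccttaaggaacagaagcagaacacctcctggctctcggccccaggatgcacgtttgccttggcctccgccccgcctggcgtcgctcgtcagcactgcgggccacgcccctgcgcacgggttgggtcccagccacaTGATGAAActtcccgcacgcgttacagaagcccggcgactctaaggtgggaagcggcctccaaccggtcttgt

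Chaperones of the endoplasmic reticulum also fell, and by less. Of 25 members 2 rose and 15 fell from day 1 to day 3, with a median log2 difference of -0.16. Hspa5, the chaperone BiP, read 290.0, 295 and 286 FPKM on day 1 and 223, 218 and 218 FPKM on day 3, and the disulfide isomerase Pdia3 266, 271 and 270.4 FPKM on day 1 and 199, 195 and 196 FPKM on day 3. The 2 risers were Sdf2l1 (log2 difference 0.23) and Pdia4 (0.079). The call of Sdf2l1 was lost without control replicate 1 or 2, day 1 replicate 1 or 2 or day 3 replicate 2 or 3 (adjusted p = 0.0517 to 0.165) and that of Pdia4 without day 1 replicate 2 or 3 or day 3 replicate 1 (0.0545 to 0.0702).

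The antioxidant genes did not move as 1 group. Of 29 tested genes of NRF2, glutathione and NADPH supply, 11 rose and 13 fell from day 1 to day 3, with a median log2 difference of -0.036. Nqo1, a quinone reductase and standard NRF2 target, read 11.9, 11.9 and 13 FPKM on day 1 and 6.83, 6.23 and 6.22 FPKM on day 3, 1.92-fold lower (95% interval 1.74 to 2.12, adjusted p = 1.09e-06), with 6.05 ± 0.505 FPKM in control. Hmox1, heme oxygenase 1, read 97.5, 95.9 and 111 FPKM on day 1 and 114, 112 and 119 FPKM on day 3. Its highest day 1 library reached close to the day 3 libraries and overlapped them once size factors were applied. Its log2 difference of 0.17 ± 0.06 (SE) passed the threshold (adjusted p = 0.0344), but not without day 1 replicate 1 or 2 or any 1 day 3 library (adjusted p = 0.0551 to 0.137). Gstm1, a glutathione transferase, rose from a mean of 263 to 438 FPKM, with 436 FPKM in control, and Osgin1, a stress-induced growth inhibitor, rose 1.76-fold. Against control the list had 13 members higher and 0 lower on day 3.

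Of 21 genes that remove peroxide and superoxide, 5 rose and 8 fell from day 1 to day 3, with a median log2 difference of -0.028. The share called was 61.9%, near the 56.2% of all genes. Cat, the peroxide-splitting enzyme catalase, read 53.8, 56.9 and 54.7 FPKM in control, 59.1, 58.9 and 57.2 FPKM on day 1 and 60.3, 57.1 and 59.8 FPKM on day 3, with no difference detected between the days (adjusted p = 0.999, SE 0.025 on the log2 scale). Gpx3, a secreted glutathione peroxidase, read 42, 42.3 and 39.8 FPKM on day 1 and 78.4, 78.4 and 76.5 FPKM on day 3, 1.86-fold higher (95% interval 1.77 to 1.95, adjusted p = 1.63e-08), against 73.5 FPKM in control. Prdx5, a peroxiredoxin, rose (log2 difference 0.24), while Gpx7 of the endoplasmic reticulum fell 1.62-fold and the extracellular superoxide dismutase Sod3 1.37-fold. Among 19 heat shock and metallothionein genes, 3 rose and 11 fell from day 1 to day 3, with a median log2 difference of -0.13. The 3 risers were the metal-binding Mt1, Mt2 and Mt3, for example Mt2 with 1919, 1965 and 1822 FPKM on day 1 and 2494, 2621 and 2529 FPKM on day 3. Cryab, a small heat shock protein of astrocytes, fell from 141, 140.4 and 154 FPKM to 88, 88.7 and 96.6 FPKM, and the mitochondrial chaperonin Hspd1 had a log2 difference of -0.40.

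Several housekeeping lists fell by small amounts. Of 35 tested ribosomal protein genes 0 rose and 33 fell from day 1 to day 3, with a median log2 difference of -0.27; against control, 33 were higher and 0 lower on day 1 (median 0.29), and 0 were higher and 0 lower on day 3 (median 0.02). Rpsa, a small subunit protein, read 267, 266 and 272 FPKM on day 1 and 171, 161 and 184 FPKM on day 3, and Rps24 134, 134 and 137 FPKM on day 1 and 94.9, 96.3 and 97.1 FPKM on day 3. Ribosomal protein genes have many near-identical processed copies, so how reads were assigned among them is uncertain. Of 32 proteasome genes 1 rose and 28 fell from day 1 to day 3, with a median log2 difference of -0.19; against control, 27 were higher and 1 lower on day 1 (median 0.19), and 2 were higher and 0 lower on day 3 (median -0.0036). The activator Psme4 and the core subunit Psma5 fell most (log2 differences -0.41 and -0.33), and Psmd3, of the regulatory lid, rose (0.13). Of 36 nuclear genes of oxidative phosphorylation 1 rose and 25 fell from day 1 to day 3, with a median log2 difference of -0.17. Ndufa4 and the ATP synthase subunit Atp5c1 fell most (log2 differences -0.46 and -0.46), and the complex I subunit Ndufs7 rose (0.19), a call lost without day 3 replicate 2 (adjusted p = 0.0506). Without control replicate 3 or day 3 replicate 3, 2 of these genes were called higher. Of 30 ribosome biogenesis genes 6 rose and 5 fell from day 1 to day 3, with a median log2 difference of -0.0071. In either direction 36.7% of this list was called, against 56.2% of all 12611 genes. Npm1, nucleophosmin, read 177, 182 and 186 FPKM on day 1 and 126, 125 and 124 FPKM on day 3, and Nop58 had a log2 difference of -0.27. The risers Nle1 and Rrs1 (log2 differences 0.31 and 0.19) lost their calls without day 1 replicate 1 or 2 or day 3 replicate 2 or 3, and Nle1 also without control replicate 2 (adjusted p = 0.0542 to 0.158). The number of risers went from 6 to 1 without day 1 replicate 1 or day 3 replicate 3 and to 2 without day 1 replicate 2 or day 3 replicate 2.

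**Figure D3:**
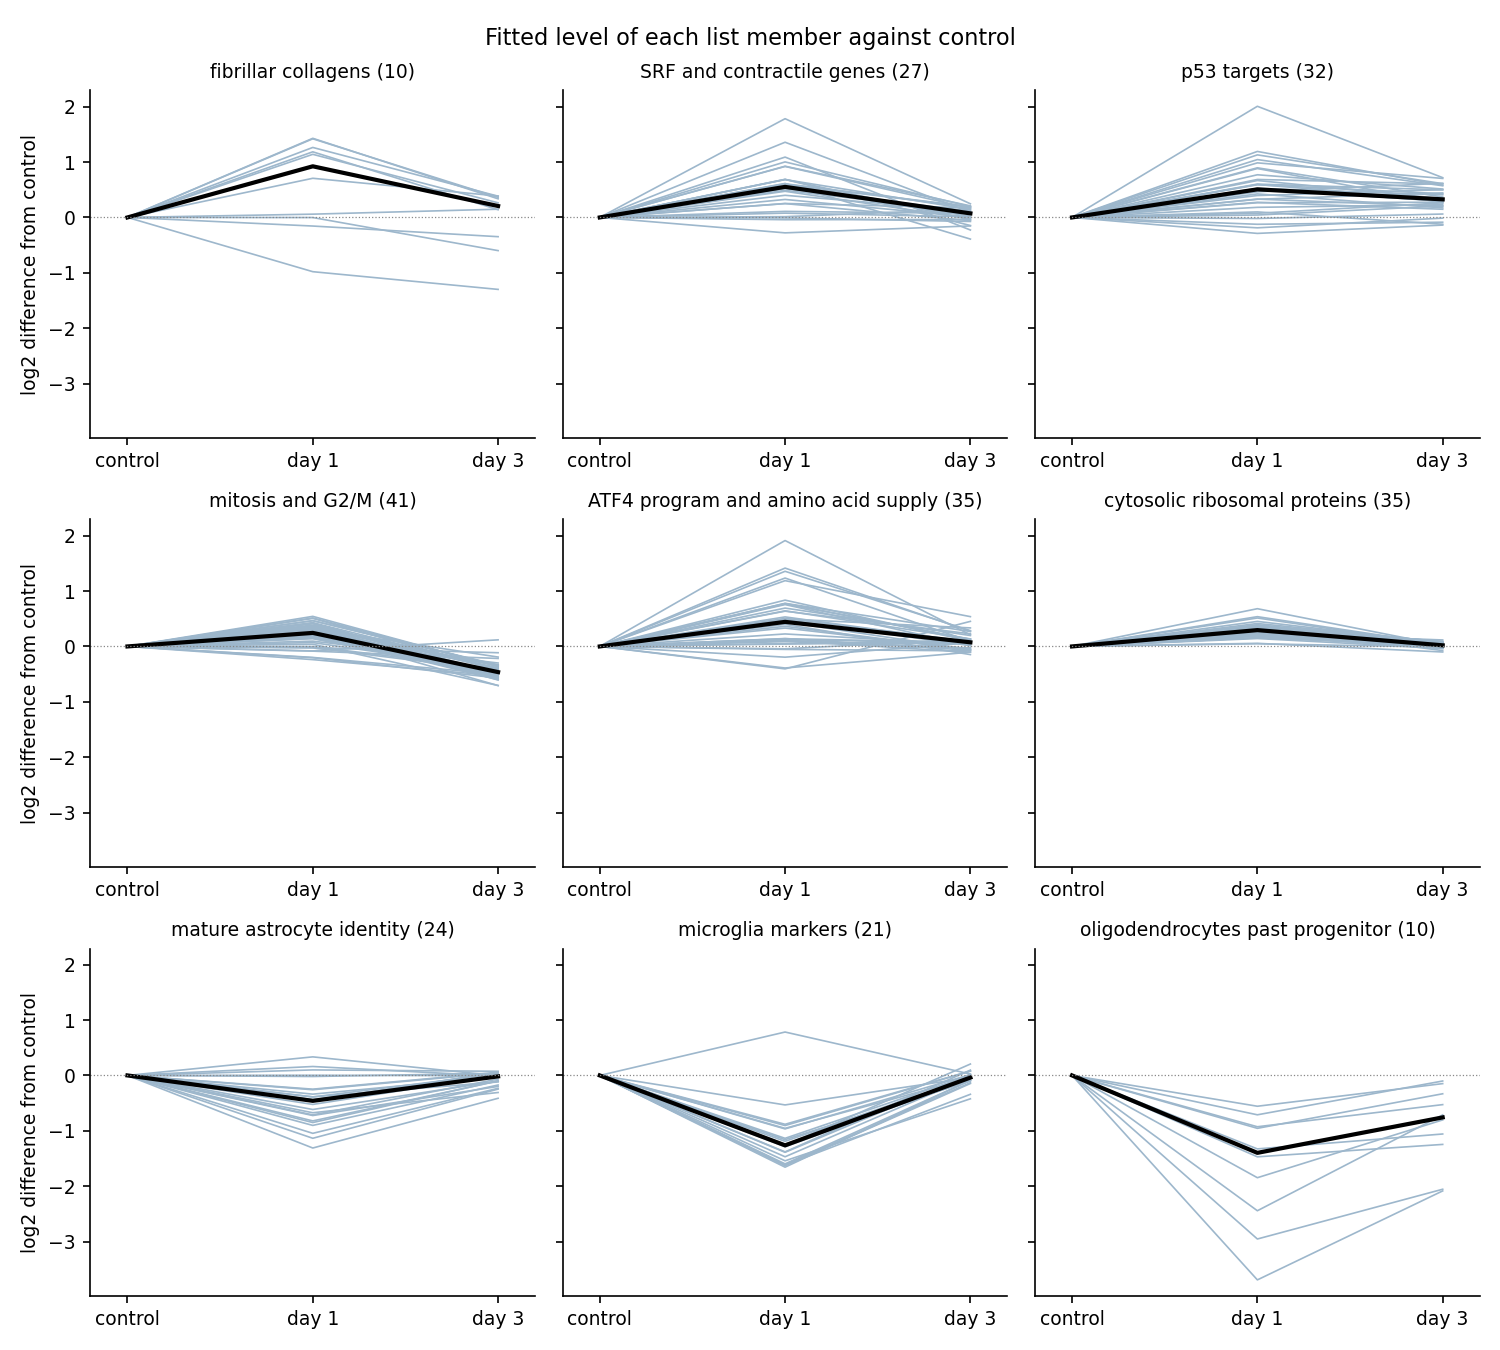
Fitted log2 difference from control on day 1 and day 3 for each tested member (thin lines) of 9 lists, with the median as a thick line and the number of members in brackets. The mitosis median crosses from 0.24 above control on day 1 to -0.46 on day 3, the p53 median stays above 0, and the oligodendrocyte median stays below 0 on both days.

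Cholesterol synthesis and cholesterol export moved in opposite directions. Of 24 tested synthesis genes 1 rose and 22 fell from day 1 to day 3, with a median log2 difference of -0.28. Idi1, which makes the isoprenoid building block, read 12.4, 12.5 and 12 FPKM on day 1 and 8.82, 7.93 and 8.01 FPKM on day 3, and Insig1, the sterol sensor partner, 39, 38.7 and 39.7 FPKM on day 1 and 27.2, 26 and 26.6 FPKM on day 3. Srebf2, the factor that drives the pathway, was the 1 riser (log2 difference 0.15). The sterol element TCACNCCAC, on either strand, was in 1 of 20 promoter windows of the list (5.0%, against 1.2% of all windows). This share rests on 1 window. The list was chosen as cholesterol synthesis genes and counted whether fallen or not, so the share says nothing about the fall. Of 19 apolipoprotein and efflux genes 12 rose and 4 fell from day 1 to day 3, with a median log2 difference of 0.30. Apoe, the main lipid carrier secreted by astrocytes, read 1393, 1339 and 1227 FPKM on day 1 and 2631, 2932 and 2611 FPKM on day 3, 2.04-fold higher (95% interval 1.86 to 2.24, adjusted p = 3.45e-07), beside 2997 ± 119 FPKM in control. On day 3 it overlapped control (log2 difference -0.12 ± 0.06 (SE), adjusted p = 0.212). Abcg1, a cholesterol exporter, rose 2.28-fold. The mitochondrial Apoo and the cholesterol-esterifying Lcat fell (log2 differences -0.56 and -0.35). Of 28 fatty acid genes 5 rose and 13 fell from day 1 to day 3, with a median log2 difference of -0.061. The lipogenic factor Srebf1 rose 1.6-fold and its target Fasn had a log2 difference of 0.30, while the acyl-CoA synthetase Acsl4 fell 1.52-fold and the desaturase Scd1 by 0.33 on the log2 scale. With quantile normalization, 9 of the fatty acid genes were called higher.

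Glycolytic and lysosomal genes were mixed. Of 25 tested glycolysis and hypoxia genes 10 rose and 7 fell from day 1 to day 3, with a median log2 difference of 0.023. Adm, the peptide adrenomedullin, rose 1.79-fold and Ldhb, a lactate dehydrogenase subunit, read 216, 222 and 205 FPKM on day 1 and 313, 336 and 315 FPKM on day 3. Gapdh fell from 645, 639 and 670.1 FPKM to 509.7, 478 and 511 FPKM, and the hexokinase Hk2 had a log2 difference of -0.28. Of 34 lysosomal genes 16 rose and 10 fell from day 1 to day 3, with a median log2 difference of 0.072. The cathepsins Ctss and Ctsb rose most (1.88-fold and 1.52-fold), and Ctsk, a collagen-degrading cathepsin, fell (log2 difference -0.32). Ctss is known from microglia, and the part of microglia in the lysosomal changes was not tested.

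Genes of mature astrocytes, the transporters and enzymes by which these cells clear glutamate and potassium, mostly rose. Of 24 tested members 19 rose and 2 fell from day 1 to day 3, with a median log2 difference of 0.47; against control, 2 were higher and 19 lower on day 1 (median -0.46), and 0 were higher and 9 lower on day 3 (median -0.017). Slc6a11, a GABA transporter, was 1.86-fold higher (95% interval 1.62 to 2.14, adjusted p = 1.42e-05) and Ntsr2, a neurotensin receptor of astrocytes, read 11.6, 12.5 and 10.4 FPKM on day 1 and 20.1, 22.2 and 22.3 FPKM on day 3. Both stayed below control (log2 differences -0.41 ± 0.091 (SE) and -0.25 ± 0.061 (SE)). The glutamate transporters Slc1a2 and Slc1a3 rose from means of 16.8 to 28 FPKM and of 178 to 259 FPKM, against 30.4 and 300.1 FPKM in control. The 2 that fell were Aldh1l1, a folate enzyme, and Aqp4, the water channel, with 113, 114 and 106 FPKM on day 1 and 101, 99.5 and 97.7 FPKM on day 3 (log2 difference -0.17 ± 0.028 (SE), adjusted p = 3.90e-04). With quantile normalization the call of Aqp4 was lost (log2 difference -0.075, adjusted p = 0.0705).

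Gfap, an intermediate filament of astrocytes, read 1479, 1468 and 1531 FPKM in control, 1293, 1265 and 1148 FPKM on day 1 and 1343, 1328 and 1329 FPKM on day 3. The 3 day 3 libraries lay above the 3 day 1 libraries, yet the log2 difference of 0.096 ± 0.039 (SE) missed the threshold (adjusted p = 0.0584). It passed with limma-voom on recovered reads (adjusted p = 0.00621), with the length trend removed (0.0482) and without day 1 replicate 1 (0.028), and turned to -0.097 (0.0262) with quantile normalization. Of 30 tested reactive genes 15 rose and 12 fell from day 1 to day 3, with a median log2 difference of 0.11. Beside Lcn2, Serping1, the inhibitor of complement C1, read 11.6, 12.3 and 10.6 FPKM on day 1 and 35.6, 35.1 and 35.3 FPKM on day 3, 3.02-fold higher (95% interval 2.8 to 3.26, adjusted p = 8.55e-09). Its control mean was 35.6 FPKM. Beside Timp1, the pattern-recognition protein Ptx3 fell 1.74-fold.

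Complement genes rose with markers of microglia. Of 17 tested complement genes (of 20 listed) 12 rose and 2 fell from day 1 to day 3, with a median log2 difference of 0.96, and 8 rose at least 2-fold. Against control, 2 were higher and 13 lower on day 1 (median -0.79), and 2 were higher and 0 lower on day 3 (median 0.0072). C3 and Serping1, given above, belong to this list and rose. The fallen members were Masp1, a protease of the lectin pathway (1.92-fold), and Cd59a, an inhibitor of the lytic pore (log2 difference -0.14), whose call was lost without control replicate 1, day 1 replicate 1 or 3, or day 3 replicate 2 or 3 (adjusted p = 0.0642 to 0.174). The subunits C1qa, C1qb and C1qc are made by microglia and stand in both lists.

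Of 21 tested microglia markers (of 22 listed) 20 rose and 1 fell from day 1 to day 3, with a median log2 difference of 1.16, and 15 rose at least 2-fold; against control, 1 was higher and 20 lower on day 1 (median -1.26), and 0 were higher and 0 lower on day 3 (median -0.038). Summed over the 22 markers, the level was 312 to 327 FPKM on day 1, 693 to 851 on day 3 and 732 to 774 in control. C1qb read 16.2, 17.6 and 14.1 FPKM on day 1 and 48.5, 49.9 and 39.8 FPKM on day 3, and Ly86, a partner of a Toll-like receptor relative, 1.61, 2.05 and 1.48 FPKM on day 1 and 5.81, 6.38 and 3.98 FPKM on day 3. The macrophage growth factor receptor Csf1r rose from a mean of 6.88 to 16.5 FPKM and the fractalkine receptor Cx3cr1 from 6.03 to 12.9 FPKM. In each of these the 2 groups did not overlap, and day 3 replicate 3 was the lowest of the day 3 libraries for C1qb and Ly86. Tmem119, listed as a homeostatic microglia marker, went the opposite way with 14.8, 14.1 and 15.6 FPKM on day 1 and 8.61, 8.48 and 9.39 FPKM on day 3. P2ry12, another defining marker, did not reach the mean of 1 FPKM. In bulk RNA, more microglia and more RNA of these genes per cell cannot be told apart, and the part of microglia in the complement, lysosomal and scavenger receptor changes was not tested.

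Of 22 interferon-stimulated and antigen presentation genes (of 32 listed) 12 rose and 2 fell from day 1 to day 3, with a median log2 difference of 0.20. The antiviral tether Bst2 read 9.95, 10.9 and 9.41 FPKM on day 1 and 15.5, 17 and 17.1 FPKM on day 3, and the immunoproteasome subunit Psmb9 rose 1.59-fold. B2m, the light chain of class I molecules, fell (log2 difference -0.30), as did H2-T23 (-0.18), a call lost without day 1 replicate 1 or 2 or day 3 replicate 3 (adjusted p = 0.0812 to 0.144). Of 16 chemokine and cytokine genes that reached the level for testing (of 29 listed) 7 rose and 4 fell from day 1 to day 3, with a median log2 difference of 0.057. The macrophage chemokines Ccl3 and Ccl4 rose 2.68-fold and 2.01-fold, to 3.13 and 3.33 FPKM, and the adhesion molecule Vcam1 fell from 42.9, 44.3 and 40.2 FPKM to 26.2, 25.7 and 26 FPKM. Tnfaip3, a brake on NF-kappaB signalling, had a log2 difference of -0.65.

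Markers of the oligodendrocyte line rose from day 1 but did not reach control. Of 9 tested progenitor markers 6 rose and 1 fell from day 1 to day 3, with a median log2 difference of 0.30; against control 6 were lower on day 3. Sox10, the lineage factor, read 19.4, 18.5 and 19.6 FPKM in control, 4.14, 4.74 and 3.07 FPKM on day 1 and 6.9, 7.57 and 7.35 FPKM on day 3, 1.81-fold higher (95% interval 1.52 to 2.16, adjusted p = 1.07e-04) than day 1. Matn4, a matrilin, rose 1.59-fold, and Cspg4, the proteoglycan NG2 that pericytes also make, fell 2.2-fold. Of 10 tested later markers (of 20 listed) 8 rose and 0 fell from day 1 to day 3, with a median log2 difference of 0.62; against control, 0 were higher and 10 lower on day 1 (median -1.40), and 0 were higher and 7 lower on day 3 (median -0.76). Gpr17, a receptor of differentiating oligodendrocytes, read 12.9, 11.1 and 11.3 FPKM in control, 0.871, 0.816 and 0.719 FPKM on day 1 and 2.59, 2.61 and 2.8 FPKM on day 3. It was 3.04-fold higher (95% interval 2.67 to 3.46, adjusted p = 1.87e-07) than on day 1 and still far under control (log2 difference -2.08 ± 0.085 (SE), adjusted p = 9.34e-07). Cldn11, the tight junction protein of myelin, read 5.37, 6.12 and 3.99 FPKM on day 1 and 17.5, 18.2 and 16.2 FPKM on day 3, with 28.8 FPKM in control. Summed over the 19 later markers in the table, the level was 96.9 to 109.7 FPKM on day 1, 173 to 175 on day 3 and 223 to 232 in control.

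All 14 tested ependymal and motile cilia genes (of 20 listed, with Sntn at 0 in every library) rose, with a median log2 difference of 0.61. Rarres2, the secreted attractant chemerin, rose 1.81-fold and the cilium gene Ccdc153 1.8-fold. Foxj1, the master regulator of motile cilia, rose from a mean of 67.5 to 101 FPKM, against 111 FPKM in control.

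Of 20 tested fibroblast and meningeal markers 6 rose and 10 fell from day 1 to day 3, with a median log2 difference of -0.13, and their sum was 3572 to 3770.0 FPKM on day 1, 2182 to 2517 on day 3 and 1945 to 2108 in control. The type I collagen chains and Dcn belong to this list and moved in opposite directions. Igf2, a growth factor of meningeal cells, read 47.2, 50.5 and 42.4 FPKM on day 1 and 119, 122 and 116 FPKM on day 3, 2.52-fold higher (95% interval 2.34 to 2.72, adjusted p = 2.19e-08). The part of fibroblasts in the collagen changes was not tested. Of 9 tested markers of vessel-wall cells 1 rose and 6 fell from day 1 to day 3, with a median log2 difference of -0.36, led down by Cspg4 and the actin-binding Cnn1 (2.01-fold). Without day 1 replicate 1, 2 were called higher. Endothelial markers reached the testing level for 3 of 14 genes. Of these, the transporter Slco1a4, which astrocytes also express, rose 2.58-fold, the adhesion protein Cdh5 rose (log2 difference 0.28) and Esam, another adhesion protein, was 2.996-fold lower. Esam also reached the testing level only through day 1. Of 4 tested neuron markers 0 rose and 0 fell (1 fell without day 1 replicate 2), and the sum over all 15 was 114 to 117 FPKM on day 1 and 113 to 114 on day 3.

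**Figure D4:**
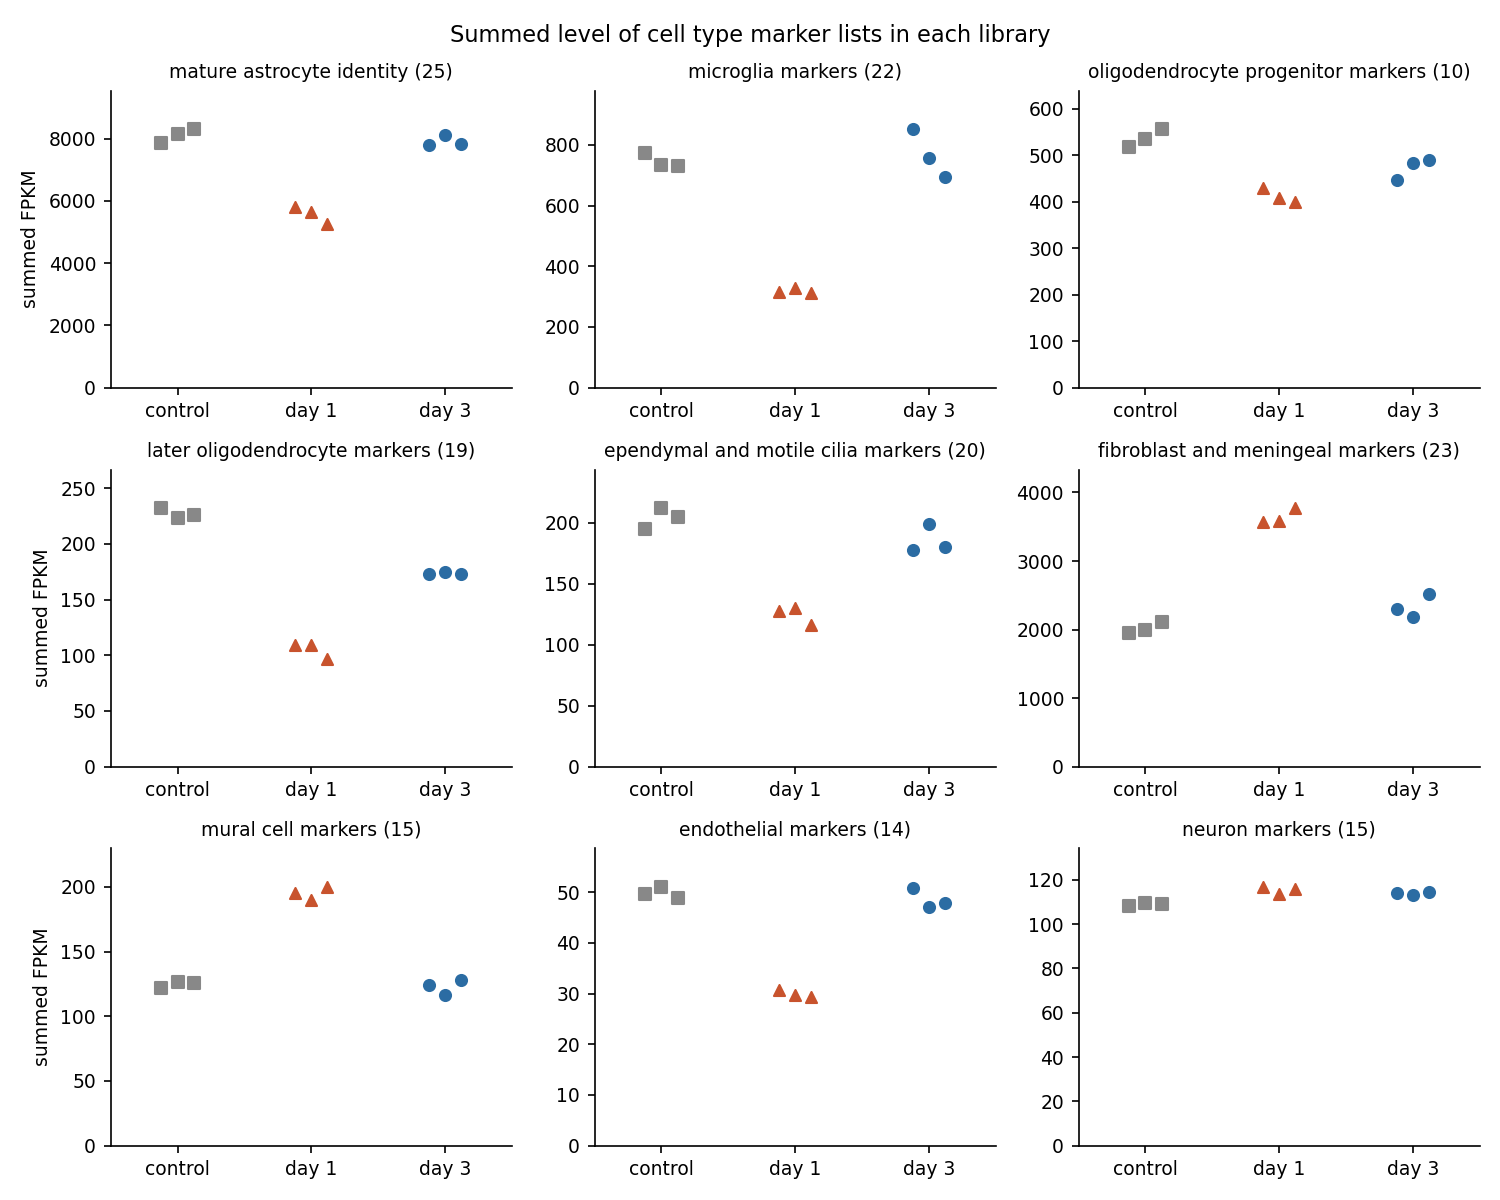
Summed FPKM of 9 cell type marker lists in each library, with the number of markers in brackets. Points are the 3 libraries of control (squares), day 1 (triangles) and day 3 (circles). Microglia, later oligodendrocyte, ependymal, endothelial and astrocyte sums are lowest on day 1, fibroblast and mural sums are highest on day 1, and neuron sums lie within 114 to 117 FPKM on day 1 and 113 to 114 FPKM on day 3. The tested endothelial markers differ: Slco1a4, which astrocytes also express, has a mean of 33.7 FPKM in control and 11.5 on day 1. Cdh5 has 11.1 and 10.9 FPKM, and Esam is highest on day 1 (0.504 and 3.26 FPKM).

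Signalling genes moved individually. Of 25 growth factor ligands 7 rose and 14 fell from day 1 to day 3, with a median log2 difference of -0.20. Lif, a cytokine that activates astrocytes, fell 2.62-fold from 5.47, 5.9 and 6.34 FPKM to 2.08, 2.25 and 2.31 FPKM, and the lipase inhibitor Angptl4 1.7-fold. Pdgfb, a mitogen of pericytes, rose 1.64-fold. Of 18 bone morphogenetic protein and Id genes 7 rose and 8 fell from day 1 to day 3, with a median log2 difference of -0.013. Bmp6 rose with Bmp7, from 31.3, 29.8 and 27.9 FPKM to 56.2, 58 and 53.8 FPKM. Nog, the secreted antagonist noggin, fell 1.56-fold. Of 15 prostaglandin genes 6 rose and 6 fell from day 1 to day 3, with a median log2 difference of 0.054. Ptgs2, the inducible cyclooxygenase, read 8.15, 8.14 and 9.26 FPKM on day 1 and 2.77, 2.58 and 3.09 FPKM on day 3, 2.99-fold lower (95% interval 2.65 to 3.38, adjusted p = 1.47e-07). The prostaglandin D synthase Ptgds rose 2.71-fold to 17.6 FPKM, under the 36.6 ± 8.26 FPKM of control, and Tbxas1, thromboxane synthase, 2.38-fold, while Ptgr1, which inactivates prostaglandins, fell 1.62-fold.

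Of 18 immediate early genes 3 rose and 7 fell from day 1 to day 3, with a median log2 difference of -0.075. The share called was 55.6%, near the 56.2% of all genes. Egr2 fell 2.58-fold and Klf4 1.68-fold, both zinc finger factors, and the AP-1 subunit Jund and Myc rose (log2 differences 0.52 and 0.46). Of 16 feedback genes of the ERK kinase pathway 6 rose and 3 fell from day 1 to day 3, with a median log2 difference of 0.079. In either direction 56.25% of them were called, also near the share over all genes. The phosphatases Dusp4 and Dusp1 fell (log2 differences -0.68 and -0.56) and Phlda1 and Spry2, a receptor kinase inhibitor, rose (0.66 and 0.48). Of 12 Notch genes 4 rose and 4 fell from day 1 to day 3, with a median log2 difference of -0.077. The share called was 66.7%, against 56.2% of all genes. The target Hes1 and the ligand Jag1 fell (log2 differences -0.53 and -0.40), and the receptor Notch1 and the sugar transferase Lfng rose (0.25 and 0.34).

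Some genes stood outside both the control and the day 1 range on day 3. Ranked by the smaller of their 2 differences, the rises were led by Medag, an adipogenesis gene, with 3.35, 2.98 and 3.58 FPKM in control, 2.54, 3.33 and 3.01 FPKM on day 1 and 5.81, 4.84 and 6.005 FPKM on day 3. Lum, the collagen-binding lumican, read 3.52, 3.59 and 2.97 FPKM in control, 2.08, 2.37 and 1.9 FPKM on day 1 and 4.95, 5.2 and 5.06 FPKM on day 3, and Cox6b2, a cytochrome oxidase subunit, 29.2, 27.7 and 31.3 FPKM in control, 26, 29.97 and 24.8 FPKM on day 1 and 40.4, 47.1 and 44.6 FPKM on day 3. Abhd11os, an antisense transcript (2.56-fold), and Mir7036, a short microRNA gene with a wide interval (1.51 to 4.21-fold), were also ranked here. On day 3 Mir7036 was not called against control (adjusted p = 0.349). In each of these 5 genes the lowest day 3 library was above the highest of the other 6 libraries, as the rule required. On the low side the same rule gave the mitotic genes Nuf2, Pbk, Pimreg and Ckap2l, the noncoding Lockd and Col11a1. Nuf2, a kinetochore subunit, read 5.33, 5.73 and 5.11 FPKM in control, 4.97, 5.7 and 5.58 FPKM on day 1 and 3.21, 3.23 and 3.24 FPKM on day 3, and Pbk, a mitotic kinase, 7.95, 9.05 and 8.12 FPKM in control, 7.5, 7.63 and 6.59 FPKM on day 1 and 4.46, 4.33 and 4.88 FPKM on day 3. Pimreg and Ckap2l, both spindle-associated, fell 1.64-fold and 1.87-fold from day 1, and Lockd 1.53-fold from 4.6, 6.09 and 6.15 FPKM to 3.02, 4.5 and 3.59 FPKM.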

How the data were processed

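The authors deposited 1 table of FPKM per gene and library from poly(A) RNA libraries, with each of the 9 columns matched to its library by name. The submitters' processing notes name the builds GRCm38 and mm10 and the tools STAR 2.7.3a, cutadapt 2.6, FastQC 0.12.1 and DESeq2. Counter, annotation, strand and filters: not given in the sources used here.

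Library totals were inferred as the values that turn the deposited FPKM into whole reads. Whole reads were recovered to within 0.01 read for all 20350 genes above 0. They summed to 99.91% to 99.94% of the inferred totals. Here FPKM were divided by median-of-ratios factors (0.976 to 1.02), taken as log2(FPKM + 0.1) and fitted with limma 3.58.1 in R 4.3.3, with group as the only term, all 9 libraries and an intensity trend. Printed FPKM are as deposited. Fold changes and 95% intervals are on the log2(FPKM + 0.1) scale and understate changes of low genes. Tests were two-sided, with Benjamini-Hochberg adjustment over 12611 genes at 0.05. Alternatives were other pseudocounts, filters, scalings and variance models, limma-voom on recovered reads, a stricter threshold, a replicate block and leaving out each library. Thinned reads and a removed length trend were added after seeing the data. Simulated data served to test the fit.

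Within a group, recovered reads of library pairs differed by 1.75 to 4.76 times the sampling variance (chi-square per degree of freedom). Each library was counted as 1 replicate, although this spread does not show that the libraries came from separate cultures. Named genes are the 12 largest rises and 12 largest falls among called genes with no overlap between the days and at least 5 FPKM in the higher group, the 6 rises and 6 falls farthest outside both other groups, at most 2 risers and 2 fallers per list, and Col1a1, Col1a2, Col3a1, Gfap, Aqp4, Apoe, C3, Acta2, Cdkn1a, Mdm2, Mki67, Hmox1, Nqo1 and Cat whatever their values. Some genes that met the rule are not reported here. Other named genes illustrate a list and were picked by role. The members and the 45 lists (1104 genes, 978 tested) were chosen with earlier results of these data known. The lists are described by counts and medians, with no test of a list. Promoters are RefSeq windows of GRCm38.p6.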

Additional observations from a re-analysis of the deposited data

How the results depend on the processing

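The numbers of genes higher and lower on day 3 than on day 1 stayed within 1.5 times of 3515 and 3577 under all 22 alternatives: 3693 and 3187 without rescaling, 3364 and 3555 with quantile normalization, 2625 and 2771 at an adjusted p under 0.01, 3521 and 3622 with limma-voom on recovered reads. Leaving out 1 library at a time gave 3124 to 3489 higher and 3254 to 3554 lower. For day 1 against control that range was 3609 to 3927 higher and 3609 to 3904 lower. Day 3 against control moved more: 533 to 919 genes were higher and 467 to 859 lower. The low values came without day 3 replicate 1 (569 higher, 467 lower), without day 3 replicate 3 (533 higher, 492 lower) and without control replicate 3 (533 lower). At an adjusted p under 0.01 it gave 411 higher and 340 lower. The cause was not tested.

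Of the 183 named genes, 168 kept direction and call under every alternative. The near-zero log2 difference of Cat turned positive without rescaling (0.016), with quantile normalization (0.065), with the day 1 and day 3 libraries alone (0.0016), with thinned reads (0.026) and in 5 of the fits that leave out 1 library, which ran from -0.0101 to 0.015. Gfap turned to -0.097 with quantile normalization. The fits without control replicate 1, 2 or 3 gave 0.00078, 0.0011 and 0.0009 for Cat, and those without day 1 replicate 1 or day 3 replicate 2 gave 0.0052 and 0.015.

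Same-numbered day 1 and day 3 libraries did not deviate together (correlations 0.0026, 0.064 and 0.014 over genes), so the numbers were not taken to pair them. With the replicate number as a block, 3549 genes were higher and 3618 lower. With reads thinned to the shallowest library, 3307 genes were higher and 3402 lower.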

Other observations

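Matched to RefSeq biotypes, 86 of 311 tested long noncoding RNA genes were higher and 29 lower on day 3 than on day 1 (27.7% and 9.32%, median log2 difference 0.15), against 28.1% and 29.3% of 12027 protein-coding genes. Of 107 microRNA genes 21 were higher and 3 lower (19.6% and 2.8%), and of 72 small nucleolar RNA genes 7 were higher and 3 lower. The difference between biotypes was not tested. Many of these genes lie in or beside coding genes, and with strand handling unknown from the labels, reads of the host and of the noncoding gene cannot be told apart. By gene length, the median log2 difference ran from -0.013 below 1000 bases to 0.02 above 8000 bases.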
